A study of Mus musculus with 6 samples.

Results

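The enzymes that make cholesterol and the other transcripts governed by sterol regulatory element-binding proteins (SREBPs) were followed in mouse advanced embryonic stem cells (ASCs) with an intact and with a disrupted *Bdh2* gene. The comparison of the genotypes asks how the transcriptome of these cells differs once *Bdh2*, a short-chain dehydrogenase gene, is disrupted. The 38 genes were taken by name, with no threshold on a measured value but with earlier results of these data known, from the 54715 genes of the deposited count table, and 38 of the 38 were found and had counts high enough to be tested. They comprised 8 enzymes from acetyl-CoA to squalene, 10 enzymes from squalene to cholesterol, 5 regulators of SREBP, 1 sterol carrier, 9 enzymes of fatty acid synthesis and desaturation, and 5 genes of the liver X receptors (LXRs) and their targets.

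ASCs are mouse embryonic stem cells in a pluripotent state maintained by activin A, BMP4, the GSK3 inhibitor CHIR99021 and leukemia inhibitory factor. There were 2 groups, 3 libraries of wild-type (WT) ASCs and 3 libraries of *Bdh2*-knockout (*Bdh2*-/-) ASCs. Both came from a cross of a 129/sv female with a male carrying GOF/GFP, a green fluorescent reporter under *Oct4* control, and both grew on fibronectin in the same medium, with no added treatment of either group stated. The knockout cells had been transfected with Cas9 and guide RNA plasmids, selected with puromycin and grown from single colonies, and the study took a clone with a bi-allelic, frameshifting deletion forward. A difference between the groups is therefore a difference between that knockout line and its WT counterpart, and nothing in the labels says whether the 3 libraries of a group were separate cultures, so p-values measure the spread between these libraries only.

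Cholesterol is built from acetyl-CoA through mevalonate and isoprenoid diphosphates to squalene, which is oxidized, closed into lanosterol and then trimmed and reduced to cholesterol. Most of these enzymes are transcribed under SREBP2, whereas SREBP1 acts mainly on fatty acid synthesis and desaturation. Both factors are made as membrane proteins that SCAP escorts from the endoplasmic reticulum to the Golgi for cleavage when sterols are scarce, and that INSIG proteins hold back when sterols are plentiful. LXRs respond to oxidized sterols and switch on cholesterol export, the LDL receptor-degrading ligase MYLIP and *Srebf1* itself.

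Promoter sequences are shown for 4 genes, because SREBPs bind sterol response elements close to the start of their targets, often beside a CCAAT box bound by NF-Y. They are the gene with a sterol response element match in its window (*Hmgcs1*), the lipogenic gene with the largest rise (*Fasn*), and a pair of genes that fell (*Insig2* and *Mylip*). That pair was not chosen by size, and other genes fell more. Each line gives the 250 bases before the RefSeq start site on GRCm38.p6, 5′ to 3′ on the strand of the gene, with matches to the sterol response element letters TCACNCCAC and to CCAAT, on either strand, in capitals (CCAAT on the opposite strand reads ATTGG).
Hmgcs1, chr13:119690101-119690350, plus strand: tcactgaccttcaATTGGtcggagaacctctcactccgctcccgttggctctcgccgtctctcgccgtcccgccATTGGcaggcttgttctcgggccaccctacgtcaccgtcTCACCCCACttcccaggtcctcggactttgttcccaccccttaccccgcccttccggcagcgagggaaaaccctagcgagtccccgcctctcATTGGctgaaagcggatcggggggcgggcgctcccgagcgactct
Fasn, chr11:120824548-120824797, minus strand: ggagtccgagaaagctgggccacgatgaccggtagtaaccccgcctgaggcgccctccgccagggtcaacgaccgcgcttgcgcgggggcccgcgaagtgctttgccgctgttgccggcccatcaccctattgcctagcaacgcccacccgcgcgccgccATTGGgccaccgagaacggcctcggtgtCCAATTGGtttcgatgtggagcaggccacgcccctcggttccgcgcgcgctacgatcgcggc
Insig2, chr1:121332590-121332839, minus strand: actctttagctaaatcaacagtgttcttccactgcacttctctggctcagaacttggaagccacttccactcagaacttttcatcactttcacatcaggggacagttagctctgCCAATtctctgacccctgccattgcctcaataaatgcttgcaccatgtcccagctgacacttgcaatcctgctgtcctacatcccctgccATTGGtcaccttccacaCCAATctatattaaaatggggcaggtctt
Mylip, chr13:45389492-45389741, plus strand: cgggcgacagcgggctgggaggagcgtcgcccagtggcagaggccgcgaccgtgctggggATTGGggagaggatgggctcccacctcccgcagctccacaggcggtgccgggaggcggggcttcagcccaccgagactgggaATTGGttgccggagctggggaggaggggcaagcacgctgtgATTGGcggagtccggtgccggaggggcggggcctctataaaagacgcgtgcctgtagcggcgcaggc
The *Hmgcs1* window held 1 sterol response element match, from -137 to -129, and 3 CCAAT boxes. *Fasn*, *Insig2* and *Mylip* each held 3 CCAAT boxes and 0 matches to TCACNCCAC, and in *Fasn* the CCAAT at -62 to -58 and the ATTGG at -59 to -55 share bases. RefSeq windows could be matched for 30 of the 38 genes, as 40 windows. TCACNCCAC stood in 1 of the 40 (2.5%), against 346 of 32851 windows of the same length over all promoters (1.05%). CCAAT stood in 23 of the 40 (57.5%), from 22 of the 30 genes, against 33.8% of all windows. These letters mark where a match lies and do not show binding. Only exact matches were sought, so a window without one may still hold an element with other letters. The remaining 8 genes had no window and were not searched.

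The libraries held 18927748 to 28333541 counts on genes, so that 3 counts, taken as the smallest level that can be shown, correspond to 0.106 to 0.158 CPM (counts scaled to the size of the library), for counting error only. *Bdh2*, the targeted gene, was at 10.4, 9.55 and 8.26 CPM in WT ASCs and at 5.95, 4.98 and 5.38 CPM in *Bdh2*-knockout ASCs, which amounts to -0.79 ± 0.12 on the log2 scale (SE; edgeR adjusted p = 0.000246). This counts reads over the whole gene, not the deleted stretch alone. The 10 pluripotent markers were abundant, with a summed level of 7364 to 7483 CPM in WT and 7463 to 7622 CPM in knockout libraries with TMM scaling, which overlapped, and of 7564 to 7592 and 7316 to 7474 CPM with library totals, which did not and ran the other way, and 5 of the 10 were called higher and 1 lower with TMM scaling, 3 higher and 2 lower with library totals, and 1 higher and 1 lower with the mean log2 level of the hepatocyte markers as a covariate. Transcripts of other cells were present too. Other marker sums are scaled by library totals. The 13 adult hepatocyte markers summed to 510, 306 and 36.7 CPM in WT ASC replicates 1, 2 and 3 and to 26.6, 128 and 14.8 CPM in knockout replicates 1, 2 and 3. By edgeR 11 of 13 were called lower in knockout ASCs, but 0 were called by DESeq2 and 0 by edgeR without WT replicate 1, 13 of 13 overlapped between the genotypes, and 0 of 13 were at 0 in every library. The 14 primitive endoderm markers were higher in knockout ASCs in 14 of 14 cases, with summed levels of 379 to 418 CPM in WT and 880 to 977 CPM in knockout libraries. Of 5 testable fibroblast markers out of 7, 0 were higher and 1 was lower, with sums of 27.3 to 33.1 CPM in WT and 21.0 to 26.6 CPM in knockout libraries. In bulk RNA, more cells of a type and more RNA per cell cannot be told apart, and because the primitive endoderm markers separate the genotypes completely, their part in the results below cannot be told apart from genotype.

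The 38 genes moved in both directions. Of the fatty acid genes 6 of 9 were called higher, a count that was 3 with the hepatocyte markers as a covariate and 4 when libraries were scaled by their totals, and of the sterol enzymes 3 rose and 6 fell. In *Bdh2*-knockout ASCs 13 of the 38 were higher, 8 were lower and 17 did not pass the test (edgeR, adjusted p under 0.05). With the hepatocyte covariate 8 were higher and 7 lower, and against a fold change of 1.2 the numbers were 2 and 2. Over all genes, the number called went from 6996 to 4996 with the covariate and to 2457 against a fold change of 1.2. The 13 higher and 8 lower genes of the main test were 55.3% of the 38. Of all 16758 genes tested 41.7% were called, with 21.0% of the genes tested higher and 20.8% lower. The 21 called genes were also the 21 whose libraries did not overlap between genotypes, and 52.4% of all genes did not overlap. On the log2 scale the median change of the 38 was 0.04, beside -0.01 over all genes tested, but it was 0.0056 without WT replicate 1 and -0.015 with library totals, where all genes had -0.07. Of the called genes, 61.9% were higher, against 50.3% of all called genes. That split moved with the scaling: when libraries were scaled by their totals, 10 genes were higher and 11 lower, and the share higher over all called genes was 38.03%. Library totals shift the median of all genes by -0.06 on the log2 scale.

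Levels spanned a wide range. Compared per length as FPKM (CPM divided by the gene length in kilobases), *Scd2*, a stearoyl-CoA desaturase, was the highest at 414 ± 17.5 FPKM in WT and 477 ± 6.07 FPKM in knockout ASCs (SD, n = 3). It alone made up 31.6% of the summed FPKM of the 38 genes in WT and 33.0% in knockout ASCs. *Scd1* and *Fasn* followed, and they changed places: *Scd1* had 85.0 ± 5.18 and *Fasn* 77.5 ± 8.60 FPKM in WT, with overlapping spreads, whereas *Fasn* had 118 ± 5.53 and *Scd1* 95.5 ± 0.973 FPKM in knockout ASCs. At the other end were *Fdps*, at 1.13 ± 0.115 FPKM in WT and 0.759 ± 0.0683 FPKM in knockout ASCs, and *Nr1h3*, at 0.416 ± 0.125 and 0.246 ± 0.0882 FPKM.

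**Figure D1:**
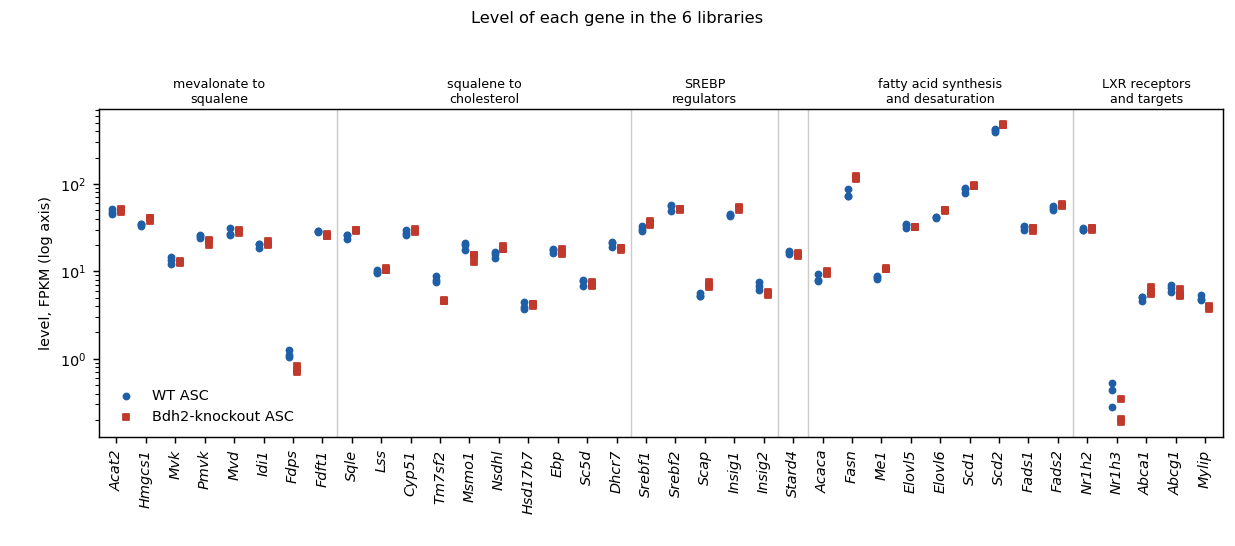
Level of each of the 38 genes (FPKM, log axis) in the 3 WT ASC libraries (blue circles) and the 3 *Bdh2*-knockout ASC libraries (red squares), grouped by role; the narrow strip without a heading holds the sterol carrier gene *Stard4*. *Scd2* stands highest and *Nr1h3* and *Fdps* lowest, and the group means of the other 35 genes lie between 3.88 and 118 FPKM.

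The summed level of the 18 sterol enzymes differed between the genotypes by less than the spread of the libraries, at 354 ± 6.43 FPKM in WT and 353 ± 7.11 FPKM in knockout ASCs. Scaled by library totals instead of TMM, the same sums were 356 to 366 FPKM in WT and 338 to 352 FPKM in knockout ASCs, which did not overlap. Of the 18 enzymes 3 rose, 6 fell and 9 did not pass the test, and without knockout replicate 2 the numbers were 3 and 3. The fatty acid group summed to 753 ± 35.9 FPKM in WT and 880 ± 5.25 FPKM in knockout ASCs, or 117% of WT. *Scd2* alone gave 414 FPKM of this sum in WT and 477 FPKM in knockout ASCs, and *Fasn* 77.5 and 118 FPKM. Of the 9 genes in it, 6 were called higher and 3 did not pass the test. The lowest knockout sum (874 FPKM) was above the highest WT sum (786 FPKM). With library totals the sums did not overlap either (734 to 797 FPKM in WT, 860 to 865 FPKM in knockout ASCs). In WT replicates 1, 2 and 3 this sum was 715, 758 and 786 FPKM, the reverse order of their hepatocyte markers (510, 306 and 36.7 CPM), whereas in knockout replicates 1, 2 and 3 it was 884, 883 and 874 FPKM beside 26.6, 128 and 14.8 CPM. The sum of the 5 SREBP regulators was 136 to 147 FPKM in WT and 151 to 154 FPKM in knockout ASCs, without overlap, but it overlapped with library totals (140 to 149 and 147 to 152 FPKM).

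**Figure D2:**
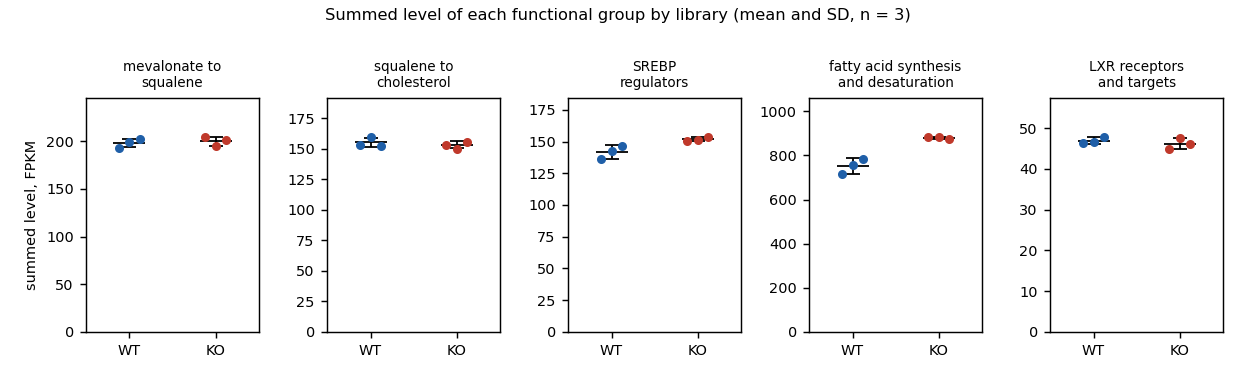
Summed FPKM (TMM scaling) of each functional group in each library (points) with the mean and SD of 3 libraries (bars) for WT and *Bdh2*-knockout (KO) ASCs, each axis starting at 0. The fatty acid sums of the knockout libraries, 874 to 884, are above those of the WT libraries, 715 to 786, while the sums of both sterol segments and of the LXR group overlap. With library totals the sums of the later sterol segment and of the LXR group no longer overlap, and those of the SREBP regulators do.

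The early pathway, from acetyl-CoA to squalene, held 1 enzyme that rose, 3 that fell and 4 that did not pass the test, and the median over these 8 was -0.02 (log2). *Hmgcs1*, the cytosolic HMG-CoA synthase that feeds the pathway, rose. It was at 152, 159 and 160 CPM in WT and 186, 174 and 186 CPM in knockout ASCs, so each knockout library was above each WT library. The log2 fold change was 0.21 ± 0.05 (SE; edgeR adjusted p = 0.00424). With the mean log2 level of the hepatocyte markers as a covariate it was 0.16 (edgeR adjusted p = 0.0587), and the call was lost. An antisense gene, Gm48342, covers 12.1% of the exon bases of *Hmgcs1* and had 3 to 13 counts in a library. Its part in the counts of *Hmgcs1* was not tested.

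The enzymes that fell act later in this segment. *Pmvk*, the phosphomevalonate kinase, fell by 0.20 ± 0.06 on the log2 scale (edgeR adjusted p = 0.0189), and its call was lost without WT replicate 1 (adjusted p = 0.055), WT replicate 3 (0.0524) or knockout replicate 2 (0.112). *Fdft1*, the squalene synthase that commits farnesyl diphosphate to sterols, fell by 0.17 ± 0.05 (edgeR adjusted p = 0.0145), a call lost without knockout replicate 1 (0.072) or 2 (0.0706). Its exons overlap those of *Ctsb* on the other strand over 18.3% of their bases, and *Ctsb* had 3518 to 4500 counts in a library. The library kit does not mark strand, so reads there cannot be assigned to either gene.

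*Fdps*, on chromosome 3 of GRCm38 (the build of all coordinates here) from 89093588 to 89101959, encodes the farnesyl diphosphate synthase that supplies both sterols and prenyl groups. It had the lowest level of the 18 enzymes, at 5.30, 4.65 and 4.35 CPM in WT and 3.15, 2.93 and 3.50 CPM in knockout ASCs. The groups did not overlap, and the log2 fold change was -0.57 ± 0.15 (SE; edgeR adjusted p = 0.00828). Of the 50-base stretches of its coding transcript, 86.4% also occur in transcripts of 8 other genes, so both its level and its change are uncertain. The call was lost with the hepatocyte covariate (-0.52, adjusted p = 0.0581). Without the 3 libraries highest in hepatocyte transcripts, which are WT replicates 1 and 2 and knockout replicate 2, the change was -0.39. That setting leaves 1 WT library, assumed to vary like the other libraries, against 2 knockout libraries, so only its log2 fold changes are given.

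*Acat2*, *Mvk*, *Mvd* and *Idi1* did not pass the test. *Acat2* makes acetoacetyl-CoA and its log2 fold change was 0.06, *Mvk* phosphorylates mevalonate and had -0.08, *Mvd* makes isopentenyl diphosphate and had 0.04, and *Idi1*, its isomerase, had 0.08. *Acat2* shares 45.9% of its 50-base stretches with other genes (mainly *Acat3*) and *Idi1* 30.5%. The sign of *Mvd* turned without WT replicate 1 (-0.02). Without the 3 libraries highest in hepatocyte transcripts, with 1 WT library left, the change was -0.20 for *Mvk* and 0.22 for *Idi1*.

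From squalene to cholesterol 2 enzymes rose, 3 fell and 5 did not pass the test, and the called enzyme with the largest fall of the 18 was here. *Tm7sf2*, one of the sterol reductases that act on the double bond left by lanosterol demethylation, showed the largest called change of the 38 genes. It lies on chromosome 19 from 6062821 to 6077197. Its levels were 44.4, 49.6 and 42.3 CPM in WT and 25.3, 25.8 and 26.6 CPM in knockout ASCs, or 57.0% of WT, with a wide gap between the groups. The log2 fold change was -0.81 ± 0.07 (SE; edgeR adjusted p = 1.32e-06), and it stayed between -0.86 and -0.74 when each library was left out in turn. In GENCODE M21, exons of *Vps51* on the same strand cover 12.1% of its exon bases, but the gene is listed with other ends and 5593 bases in the count table against 4403 exon bases in that annotation, so the overlap for the counted model was not computed.

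*Msmo1*, the sterol methyl oxidase that starts removal of the methyl groups of lanosterol, is on chromosome 8 from 64718139 to 64733792. It was at 124, 131 and 109 CPM in WT and 95.6, 77.8 and 94.0 CPM in knockout ASCs. Knockout libraries were below the lowest WT library, with replicate 2 the lowest of all. The log2 fold change was -0.44 ± 0.08 (SE; edgeR adjusted p = 0.000827), and no other gene shared its 50-base stretches. Without the 3 libraries highest in hepatocyte transcripts the change was smaller, at -0.21, with 1 WT library left. *Dhcr7*, the reductase that yields cholesterol in the final step, fell by 0.18 ± 0.06 (edgeR adjusted p = 0.026). It was called in only 1 of the 6 analyses that left out a single library, being lost without WT replicate 2 (0.106) or 3 (0.0501) and without knockout replicate 1 (0.0695), 2 (0.111) or 3 (0.0649).

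*Sqle*, the squalene epoxidase at the second control point of the pathway, went the other way. Its levels were 131, 143 and 143 CPM in WT and 162, 165 and 165 CPM in knockout ASCs, without overlap. The log2 fold change was 0.23 ± 0.05 (SE; edgeR adjusted p = 0.00261). *Nsdhl*, which works beside *Msmo1* in removing the methyl groups, also rose, with a log2 fold change of 0.25 ± 0.06 (edgeR adjusted p = 0.00774). Adjacent steps of lanosterol processing thus differed in sign, with *Msmo1* at 73.5% and *Nsdhl* at 119% of the WT mean.

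Of the 5 others in this segment none passed the test. *Lss*, which closes the sterol rings, had a log2 fold change of 0.09, *Cyp51*, the lanosterol demethylase, 0.08, *Hsd17b7*, the sterol ketoreductase, 0.05, *Ebp*, a sterol isomerase, -0.02, and *Sc5d*, a sterol desaturase, -0.07. *Ebp* turned sign without WT replicate 1 (0.01) or knockout replicate 3 (0.04), and *Sc5d* without the 3 libraries highest in hepatocyte transcripts (0.10). In that last setting, with 1 WT library left, the change of *Cyp51* was 0.18.

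**Figure D3:**
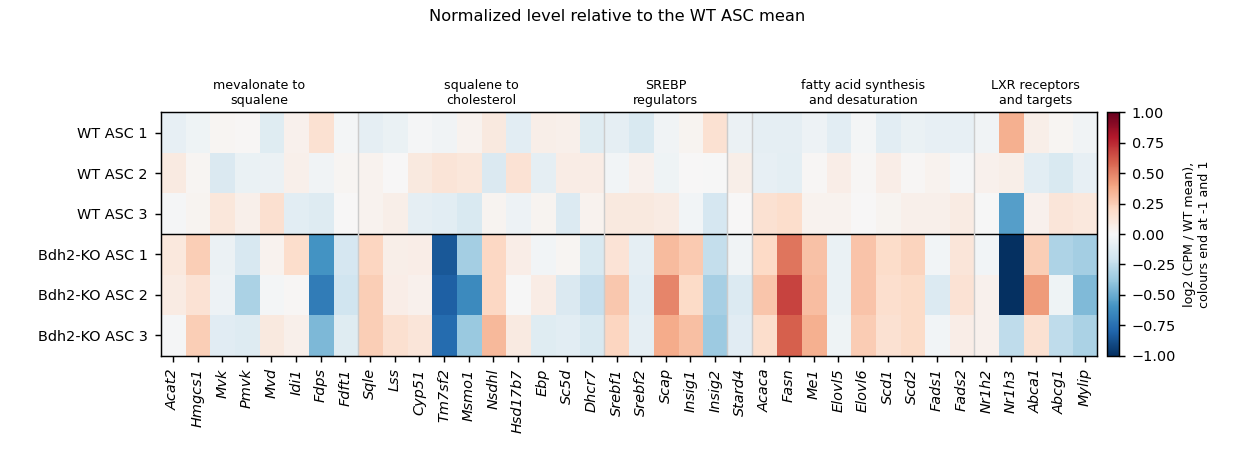
Level of each gene in each library relative to the WT ASC mean (log2 of the CPM ratio, red above and blue below, colours ending at -1 and 1), with the 3 WT libraries above the line and the 3 *Bdh2*-knockout (KO) libraries below it. *Tm7sf2*, *Fdps*, *Msmo1* and *Mylip* are blue and *Fasn*, *Scap* and *Me1* red in 3 of 3 knockout libraries, and *Nr1h3* differs among libraries of the same genotype.

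Among the SREBP genes and those of the proteins that hold or release SREBPs, 3 of 5 rose, 1 fell and 1 did not pass the test. *Scap*, the sterol-sensing escort of SREBPs, on chromosome 9 from 110333288 to 110384950, rose most. It was at 38.8, 38.5 and 42.0 CPM in WT and 49.4, 55.9 and 51.4 CPM in knockout ASCs, or 131% of WT. The groups were well apart, with a log2 fold change of 0.39 ± 0.06 (SE; edgeR adjusted p = 0.000226). Without the 3 libraries highest in hepatocyte transcripts the change was 0.26. The antisense gene 5830462I19Rik covers 13.2% of its exon bases and had 1 to 16 counts in a library.

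The retention proteins went in opposite directions. *Insig1*, itself a classical SREBP target, was at 139, 137 and 134 CPM in WT and 164, 156 and 168 CPM in knockout ASCs. It rose by 0.25 ± 0.05 on the log2 scale (edgeR adjusted p = 0.00135), and the groups did not overlap. *Insig2*, whose transcription does not depend on SREBP in the same way, was at 26.4, 23.7 and 21.2 CPM in WT and 20.2, 18.9 and 18.5 CPM in knockout ASCs. It fell by 0.31 ± 0.08 (edgeR adjusted p = 0.00898), though the lowest WT library was close to the highest knockout library. Among WT libraries, but not among knockout libraries, *Insig2* followed the order of the hepatocyte transcripts. Its change was -0.19 with the hepatocyte covariate (adjusted p = 0.163), where the call was lost. Without the 3 libraries highest in these transcripts it was -0.14, with 1 WT library left. The ratio of *Insig1* to *Insig2* in FPKM was 6.49 ± 0.585 in WT and 9.53 ± 0.580 in knockout ASCs, with 5.91 to 7.08 in WT and 9.13 to 10.2 in knockout libraries (exact permutation test, two-sided, p = 0.1, the smallest that 3 against 3 allows).

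Of the genes of the SREBPs themselves, *Srebf1* was called higher and *Srebf2* did not pass the test. *Srebf1* was at 165, 172 and 188 CPM in WT and 193, 211 and 203 CPM in knockout ASCs. The groups did not overlap but lay close, and the log2 fold change was 0.21 ± 0.06 (SE; edgeR adjusted p = 0.0122). The call was lost without knockout replicate 2 (adjusted p = 0.0534), with library totals (0.0502) and with the hepatocyte covariate (0.0997). Without the 3 libraries highest in hepatocyte transcripts the log2 fold change of *Srebf1* was 0.07. *Srebf2*, the main factor for sterol enzymes, was at 352, 402 and 417 CPM in WT and 367, 363 and 367 CPM in knockout ASCs. WT replicate 1 was the lowest of the 6 libraries and the other WT libraries the highest, and the change of -0.09 ± 0.06 did not pass the test (edgeR adjusted p = 0.22). *Srebf2* was called lower without WT replicate 1 (-0.16, adjusted p = 0.0202), with the hepatocyte covariate (-0.18, adjusted p = 0.049) and with library totals (-0.15, adjusted p = 0.0456). Its change was -0.19 without the 3 libraries highest in hepatocyte transcripts, with 1 WT library left. The FPKM ratio of *Srebf2* to *Srebf1* was 1.74 ± 0.0800 in WT and 1.42 ± 0.0715 in knockout ASCs, without overlap (exact permutation test, two-sided, p = 0.1).

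*Stard4*, a soluble carrier that moves cholesterol between membranes, had 92.5 ± 3.70 CPM in WT and 86.6 ± 3.37 CPM in knockout ASCs. Its log2 fold change of -0.09 ± 0.05 did not pass the test (edgeR adjusted p = 0.177).

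In fatty acid synthesis and desaturation 6 of 9 genes rose, 0 fell and 3 did not pass the test, and the median over these 9 was 0.20 (log2). With the hepatocyte covariate 3 of 9 were called higher (*Fasn*, *Me1* and *Elovl6*), and without WT replicate 1 it was 4. The largest rise of the 38 genes was that of *Fasn*, the fatty acid synthase that builds palmitate, on chromosome 11 from 120805846 to 120824547. It was at 796, 792 and 957 CPM in WT and 1231, 1352 and 1287 CPM in knockout ASCs, or 152% of WT. WT replicate 3 stood above the other WT libraries but below every knockout library. The log2 fold change was 0.60 ± 0.07 (SE; edgeR adjusted p = 1.96e-05), and 0.52 with the hepatocyte covariate (adjusted p = 6.78e-05). Without the 3 libraries highest in hepatocyte transcripts it was 0.39.

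Enzymes on either side of *Fasn* rose less. *Acaca*, the acetyl-CoA carboxylase that makes malonyl-CoA, rose by 0.22 ± 0.07 on the log2 scale (edgeR adjusted p = 0.0168). Another annotated gene, Gm5182, shares 52.6% of its 50-base stretches and was counted 564 to 1018 times in a library, so the split of reads between them is uncertain. The *Acaca* call was lost without WT replicate 1 (adjusted p = 0.0693), WT replicate 2 (0.0754) or knockout replicate 2 (0.0604), with library totals (0.0554) and with the hepatocyte covariate (0.16). Without the 3 libraries highest in hepatocyte transcripts the change of *Acaca* was 0.03. *Me1*, the cytosolic malic enzyme that yields NADPH, rose by 0.32 ± 0.05 (edgeR adjusted p = 0.00042), with 32.8% of its stretches shared with other genes, mainly Gm7049, which had 0 to 4 counts. *Elovl6*, which lengthens palmitate to stearate, rose by 0.27 ± 0.04 (edgeR adjusted p = 0.000349). Its knockout levels of 315 to 323 CPM were above its WT levels of 261 to 267 CPM.

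The stearoyl-CoA desaturases, which make oleate and palmitoleate, rose together by a small amount. *Scd2* was at 2154, 2282 and 2341 CPM in WT and 2640, 2582 and 2583 CPM in knockout ASCs, which is a log2 difference of 0.20 ± 0.04 (SE; edgeR adjusted p = 0.00216). *Scd1* was at 383, 431 and 420 CPM in WT and 467, 462 and 457 CPM in knockout ASCs, which is a log2 difference of 0.17 ± 0.05 (SE; edgeR adjusted p = 0.0187). For both genes every knockout library was above every WT library. The FPKM ratio of *Scd2* to *Scd1* was 4.88 ± 0.156 in WT and 4.99 ± 0.0300 in knockout ASCs, which overlapped (exact permutation test, two-sided, p = 0.2). The call for *Scd1* was lost without WT replicate 1 (adjusted p = 0.068) or knockout replicate 1 (0.0505) and with library totals (0.0891), and both calls were lost with the hepatocyte covariate (0.144 for *Scd1*, 0.0672 for *Scd2*).

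The front-end desaturases of polyunsaturated fatty acids did not pass the test. *Fads1* was at 103, 112 and 113 CPM in WT and 107, 99.4 and 107 CPM in knockout ASCs, which is a log2 difference of -0.06 ± 0.06 (edgeR adjusted p = 0.395). *Fads2* was at 75.7, 79.5 and 84.8 CPM in WT and 86.8, 88.3 and 83.7 CPM in knockout ASCs, which is a log2 difference of 0.11 ± 0.06 (edgeR adjusted p = 0.136). Both genes overlapped between the genotypes, and *Fads2* was called higher without WT replicate 3 (0.15, adjusted p = 0.0283). The ratio of *Fads1* to *Fads2* in FPKM was nonetheless 0.581 to 0.615 in WT and 0.492 to 0.560 in knockout libraries, without overlap (exact permutation test, two-sided, p = 0.1). *Fads2* is listed with a length of 1508 bases against 3295 exon bases in GENCODE M21, and *Fads1* with 3456 against 4812, so their FPKM, and the size of this ratio, depend on those lengths. *Elovl5*, which lengthens the products of these desaturases, had a log2 fold change of -0.06 and no call.

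Of the 5 genes of LXRs and their targets 1 rose, 1 fell and 3 did not pass the test. *Abca1*, the transporter that exports cholesterol to apolipoproteins, rose from 50.8 ± 3.09 to 61.7 ± 6.11 CPM, or by 0.28 ± 0.07 on the log2 scale (SE; edgeR adjusted p = 0.0068). Without the 3 libraries highest in hepatocyte transcripts its change was 0.16, with 1 WT library left. *Mylip*, the ubiquitin ligase that marks the LDL receptor for degradation, fell from 16.2 ± 1.07 to 12.6 ± 0.541 CPM, which is -0.37 ± 0.08 on the log2 scale (SE; edgeR adjusted p = 0.00271). The called LXR targets thus went in opposite directions. *Abcg1*, which exports cholesterol to lipoprotein particles, had a log2 fold change of -0.20 ± 0.08 (edgeR adjusted p = 0.0762). It was called lower without WT replicate 2 (-0.27, adjusted p = 0.0301) and without knockout replicate 2 (-0.28, adjusted p = 0.0252). Without the 3 libraries highest in hepatocyte transcripts, with 1 WT library left, the change of *Abcg1* was -0.40.

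The receptors differed mainly in level. *Nr1h2*, the widely expressed LXR, was at 101 ± 2.62 CPM in WT and 102 ± 2.62 CPM in knockout ASCs and had a log2 fold change of 0.02 (edgeR adjusted p = 0.829), which turned sign (-0.0024) without WT replicate 1. *Nr1h3*, the LXR typical of liver and macrophages, was at 1.34, 1.09 and 0.712 CPM in WT and 0.508, 0.476 and 0.875 CPM in knockout ASCs. These levels are a few times the 3-count floor, the genotypes overlapped, and the change of -0.75 ± 0.35 did not pass the test (edgeR adjusted p = 0.103). WT libraries with more hepatocyte transcripts had more *Nr1h3*, which was not so among knockout libraries. The change was -0.49 with the hepatocyte covariate (edgeR adjusted p = 0.442) and -0.98 without WT replicate 3 (edgeR adjusted p = 0.0455). Over the single libraries left out it ran from -1.05 to -0.53.

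**Figure D4:**
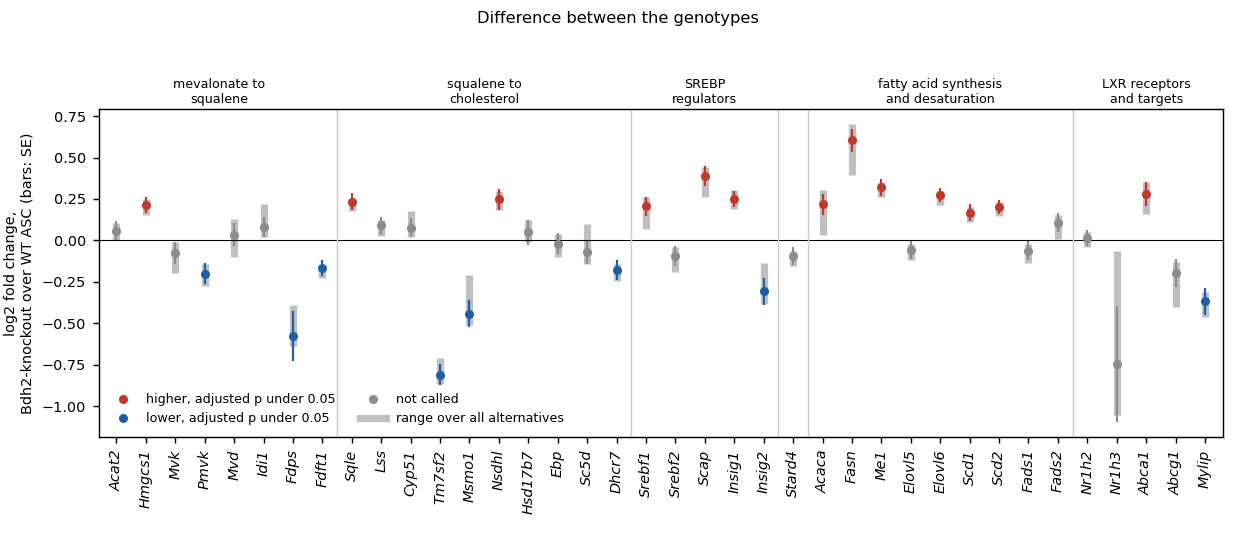
Log2 fold change of each gene, *Bdh2*-knockout over WT ASCs, with its SE (thin bars), coloured red for genes called higher, blue for genes called lower and grey for the rest, over the range of values under the alternative analyses (wide grey bars). *Tm7sf2* at -0.81 and *Fasn* at 0.60 lie farthest from 0 among called genes, and the range of 0 of the 21 called genes crosses 0.

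How far these changes rest on other settings differed by gene. Of the 21 called genes, 11 kept their call in each of 14 alternatives, which leave aside the test against a fold change of 1.2 and the setting with 1 WT library. They are *Sqle*, *Tm7sf2*, *Msmo1*, *Nsdhl*, *Scap*, *Insig1*, *Fasn*, *Me1*, *Elovl6*, *Abca1* and *Mylip*. Against a fold change of 1.2, *Fasn* and *Scap* were still called higher and *Tm7sf2* and *Msmo1* lower. These 4 were called as well with the hepatocyte covariate, at 0.52, 0.38, -0.76 and -0.42 on the log2 scale. Without the 3 libraries highest in hepatocyte transcripts their values were 0.39, 0.26, -0.71 and -0.21, from 1 WT library and with no weight as a test.

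Related genes outside the 38 were counted in 6 lists, first with TMM scaling and then with library totals. The machinery that cleaves SREBPs or degrades sterol enzymes had 6 of 12 genes higher and 2 lower, and the median was 0.15 on the log2 scale. With library totals 5 were higher and 4 lower, and 1 was lower without WT replicate 1 or 2 or knockout replicate 1 or 3, as by DESeq2 and limma-voom. The isoprenoid branch that leads to ubiquinone, dolichol and prenylated proteins had 3 of 15 higher and 3 lower (median 0.04), against 2 higher and 6 lower with library totals. Acetyl-CoA and NADPH supply had 3 of 11 higher and 2 lower (median 0.00012), and 2 and 2 with library totals. Electron donors and auxiliary proteins of the sterol enzymes had 2 of 8 higher and 2 lower (median 0.02), and the same numbers with library totals. The 2 that were lower lost their calls without WT replicate 1 or any 1 of the knockout libraries. Of 14 testable genes of acyl elongation and lipid assembly, 1 rose and 5 fell (median 0.01), against 0 and 5 with library totals, and 2 fell without knockout replicate 1. Of 14 testable genes of sterol transport and esterification, 0 rose and 6 fell (median -0.13), against 0 and 8 with library totals, while 3 fell by DESeq2 and 2 without knockout replicate 2. Over all genes tested the median was -0.01, with 21.0% higher and 20.8% lower, and with library totals 16.3% were higher and 26.6% lower.

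In these lists 2 called genes differed by 0.7 or more on the log2 scale, both downwards. *Elovl7*, an elongase of long-chain acyl-CoAs, was at 11, 13 and 11 CPM in WT and 6.31, 6.19 and 8.34 CPM in knockout ASCs, which is a log2 difference of -0.75 ± 0.13 (SE; edgeR adjusted p = 0.000425). *Cyp46a1*, the cholesterol 24-hydroxylase best known from neurons, was at 1.39, 1.04 and 1.15 CPM in WT and 0.616, 0.403 and 0.792 CPM in knockout ASCs, which is a log2 difference of -0.98 ± 0.31 (SE; edgeR adjusted p = 0.0226). Neither overlapped between the genotypes, and *Cyp46a1* rested on 11 to 29 counts in a library. The call for *Cyp46a1* was lost without WT replicate 1 (adjusted p = 0.0827), knockout replicate 1 (0.0632) or knockout replicate 2 (0.103), with the hepatocyte covariate (0.0541) and with DESeq2 (0.0548). *Elovl7* was called in each of these settings. Without the 3 libraries highest in hepatocyte transcripts the change was -0.71 for *Cyp46a1* and -0.60 for *Elovl7*, with 1 WT library left.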

How the data were processed

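RNA of 3 WT and 3 *Bdh2*-knockout ASC replicates was sequenced on an Illumina HiSeq instrument after a TruSeq RNA preparation, which does not mark strand. The authors trimmed adaptors, discarded low-quality reads, aligned what was left to GRCm38 using HISAT2 2.0.5, assigned it to genes using FeatureCounts and deposited raw counts for 54715 genes with a length and position for each. The annotation release and the treatment of multiply mapping reads are not given in the sources used here.

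The quasi-likelihood test of edgeR 4.0.16 (in R 4.3.3) compared the genotypes, with TMM scaling, the filterByExpr filter and no other factor, and p-values were adjusted by Benjamini-Hochberg for the 16758 genes that passed (threshold 0.05). The functions were first tested on simulated data. SE is the log2 fold change divided by the square root of F. CPM uses TMM library sizes, except for summed marker levels, which use library totals unless TMM is named, and FPKM also uses the listed lengths. Alternatives were DESeq2 1.42.0, limma-voom (limma 3.58.1), median-of-ratios factors, library totals, no filter, a block for the replicate number, only genes averaging 50 counts or more, a covariate of hepatocyte transcripts (the mean log2 of CPM plus 1 over the marker list), a test against a fold change of 1.2, TPM for levels, and each library left out. An analysis without the 3 libraries highest in hepatocyte transcripts was chosen after seeing the data and leaves 1 WT library, assumed to vary like the other libraries, against 2 knockout libraries. Single values were compared with two-sided exact permutation tests, whose smallest p for 3 against 3 is 0.1.

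The genes, lists and tests were chosen with earlier results of these data known. All 38 genes are named. Values in each library are given for called genes that differ by 0.4 or more on the log2 scale and for *Sqle*, *Srebf1*, *Srebf2*, *Scap*, *Insig1*, *Insig2*, *Scd1*, *Scd2*, *Fads1* and *Fads2*. *Bdh2* and the named genes of other lists have them too, as do *Hmgcs1* and *Nr1h3*, which were added after their values were seen. Genes of other lists are named if called with a difference of 0.7 or more on that scale, at most 3 in each direction and list. Overlaps and shared 50-base stretches were computed from GENCODE M21, and promoters are from RefSeq (GRCm38.p6). Python 3.11.15, pandas 2.3.3, scipy 1.17.1 and matplotlib 3.10.9 were used for tables and plots.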

Additional observations from a re-analysis of the deposited data

How the results depend on the processing

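The calls of the 38 genes did not change under DESeq2, limma-voom, median-of-ratios factors or no filter on low counts (13 higher, 8 lower), nor under a mean count of at least 50, where *Nr1h3* was not tested. No called gene changed sign under any alternative. The test against a fold change of 1.2 left 2 genes higher and 2 lower, and 2457 genes in all against 6996. With the hepatocyte covariate 8 were higher and 7 lower, and 4996 genes were called in all. *Hmgcs1*, *Srebf1*, *Acaca*, *Scd1*, *Scd2*, *Fdps* and *Insig2* lost their calls, and *Srebf2* was newly called lower. With library totals the median log2 fold change was -0.015 instead of 0.0426, *Srebf1*, *Acaca* and *Scd1* lost their calls, *Srebf2*, *Stard4* and *Abcg1* were called lower, and *Acat2* (-0.00027), *Mvd* (-0.0223), *Hsd17b7* (-0.00781) and *Nr1h2* (-0.0426) turned sign without a call. *Mvd* also turned sign with the hepatocyte covariate (-0.0976), without WT replicate 1 (-0.0184) and without the 3 libraries highest in hepatocyte transcripts (-0.0966). *Ebp* turned sign with the covariate (0.0161) and without WT replicate 1 (0.00831) or knockout replicate 3 (0.0388), *Nr1h2* without WT replicate 1 (-0.00237), and *Sc5d* without the 3 libraries (0.097). Over the single libraries left out, the values of *Mvd* ran from -0.0184 to 0.127, of *Ebp* from -0.0662 to 0.0388 and of *Nr1h2* from -0.00237 to 0.0499. The cause of these changes was not tested. With each library left out in turn, 11 to 14 genes were higher and 6 to 8 lower, the median was 0.00564 (without WT replicate 1) to 0.0635, and 5613 to 7409 genes were called in all. Without the 3 libraries, with 1 WT library left, the median was 0.0196. The summed WT level of the 38 genes was 1312 as FPKM and 3877 as TPM. At the depth of these libraries *Nr1h3* and *Fdps* are the genes whose changes are least precise (SE 0.35 and 0.15).

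The replicate numbers are not stated to pair cultures, and the deviations of same-numbered libraries correlated at -0.154, 0.0995 and 0.245, so the numbers were not taken as pairs. With the replicate block 6452 genes were called, and the calls of the 38 genes were as without it, 13 higher and 8 lower, with a median of 0.0471. Not every library correlated best with its own number.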
